A study of Mus musculus with 7 samples.

Results

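The genes described here are 10 mouse genes of the bone morphogenetic protein (BMP) response: Id1, Id2, Id3 and Id4, the Smad genes Smad1, Smad5, Smad6, Smad7 and Smad9, and Bambi. They were chosen by symbol, as rows of the deposited count tables whose Ensembl ID carries one of these names, and make up 10 of 53801 gene IDs. All 10 were present in the tables and all 10 passed the filter on low counts, which 12930 genes passed in all. RNA was sequenced from stromal cells sorted out of the limb bones of male C57BL/6 mice, 8 weeks old when dosing began. In the treated group, 4 mice received FAPi, an inhibitor of fibroblast activation protein, a protease displayed on activated fibroblasts, at 500 µg/kg in 100 µl each day for 35 days by intraperitoneal injection. The control group was 3 mice given the same volume of the vehicle DPBS (Dulbecco's phosphate-buffered saline) on the same schedule. The sort kept live Pdgfra+ cells without CD45, Ter119 or Tie2, 7000 per sample. The inhibitor is named in the sources used here only by its target, and no gene was altered in either group.

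BMPs are secreted ligands of the TGF-beta superfamily that bind paired type I and type II receptor kinases. The activated type I receptor phosphorylates Smad1, Smad5 or Smad9, which join Smad4, enter the nucleus and bind DNA. Among the best known target genes are those for the Id proteins, which hold a helix-loop-helix but no basic region and so keep partner bHLH factors off DNA, and those for Smad6, Smad7 and Bambi, which feed back to damp the pathway. In marrow stroma, BMP signalling is known for its part in the choice between bone and fat lineages. The set therefore joins transducers of the signal (Smad1, Smad5, Smad9) with genes that the signal switches on.

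Promoter sequence is shown for the members whose window holds the GC-rich box bound by BMP-activated Smads, and for Id3, which lacks it but holds the short Smad element 3 times. The windows run from 250 bases before to 50 after each RefSeq start site (build GRCm38.p6, the assembly behind mm10), and 7 of the 10 members had at least 1 window (Id2, Id3, Id4, Smad1, Smad5, Smad6 and Smad9). Each line gives 30 bases, 5′ to 3′ on the strand of the gene, with GGCGCC, or the element GTCT on either strand, in capitals.
Id2 (chr12:25096306-25096335, minus strand): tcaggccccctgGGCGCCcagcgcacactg
Id4 (chr13:48260956-48260985, plus strand): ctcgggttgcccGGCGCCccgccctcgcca
Smad5 (chr13:56703021-56703050, plus strand): ccccggcgagcgGGCGCCgagcgcttgtcc
Smad9 (chr3:54755519-54755548, plus strand): gcacggccgcctGGCGCCcttccagcgcgg
Id3 (chr4:136143643-136143672, plus strand): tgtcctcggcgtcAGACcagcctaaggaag
Id3 (chr4:136143741-136143770, plus strand): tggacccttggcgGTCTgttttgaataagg

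The box GGCGCC, which reads the same on both strands, began at -231 in Id2, -148 in Id4 and -51 in Smad9, counted from the start site as 0. In Smad5 it began at 23 from the most upstream of its RefSeq start sites. It was present in windows of 4 of the 7 members and in 11.9% of all 32851 windows of the same length in the table. The windows of Id2, Id3 and Id4 were 63.3%, 60.0% and 73.3% G and C, against a median of 52.7% over all windows. The element GTCT (AGAC on the other strand) was found in 5 of the 7 members and in 88.0% of all windows, and in Id3 it began at -166, -68 and 21. The joined form, GGCGCC followed after 5 bases by GTCT on either strand, was in 0 of the 7 and in 0.0731% of all windows. The E-box CANNTG was in 4 of the 7 members (72.3% of all windows), and TGACG on either strand, the core of a CREB site, in 5 (20.8%). A member was counted if any of its windows held the motif, while the shares of all windows are per window. The 7 members had 9 windows, with more than 1 for Smad5, so counts and shares are not in like units. These matches describe letters in a short window only.

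The libraries held 9228260 to 10569690 counts in the DPBS group and 7492570 to 9226841 in the FAPi group. The totals did not overlap, but DPBS replicate 2 (9228260) and FAPi replicate 2 (9226841) were almost equal. Values below are CPM, counts scaled to the library total, after TMM scaling, which corrects that total for composition. In these units 3 counts, taken here as the detection limit, corresponded to 0.269 to 0.419 CPM. After TMM scaling the library sizes were 9467969 (DPBS replicate 2) to 11162600 in DPBS and 7163775 to 8585196 in FAPi libraries. FAPi replicate 2 was then at 7737577, no longer close to DPBS replicate 2. Defining stromal markers were abundant in all 7 libraries, with Cxcl12 at 15945 to 21281 CPM. Pdgfra, the sorted marker, was at 317 to 365 CPM in DPBS and 383 to 440 CPM in FAPi libraries (edgeR adjusted p = 0.836). Among the 8 stromal markers it was the 1 whose groups did not overlap. Tek, which encodes the excluded Tie2, stood at 0 to 1.602 CPM. Summed erythroid markers (9 of 10 matched) reached 1672 to 15225 CPM in DPBS and 1553 to 3080 CPM in FAPi libraries, and summed neutrophil markers 609 to 2616 CPM and 185 to 611 CPM. All 9 tested erythroid, 9 neutrophil and 10 proliferation markers had lower estimates in FAPi, where 49.4% of all genes did. The median log2 differences (FAPi minus DPBS) were -1.45, -1.59 and -1.02. In edgeR 0 of these were called, and DESeq2, which called 1.04% of all genes, called 0, 2 and 1. In bulk RNA, fewer cells of a type and less of a transcript per cell cannot be told apart.

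Levels between genes were compared per kilobase of merged exons. Id4 stood highest, at 421 ± 166 CPM per kb (SD, n = 7 libraries). By mean CPM, which is not corrected for gene length, Id4 ranked 54 of 12930 genes. Id3 followed at 139.8 ± 36.0 CPM per kb, and Id2 and Id1 lay far below at 18.1 ± 12.1 and 12.01 ± 4.22 CPM per kb. Id4 exceeded Id3 in 7 of 7 libraries and Id3 exceeded Id2 in 7 of 7, with no overlap of the ranges in either case. Id2 and Id1 did not hold one order: Id2 was the higher in 3 of 7 libraries, all treated with FAPi. Below them came Smad7 (9.62 ± 3.58 CPM per kb), Smad1 (6.42 ± 2.29), Smad6 (5.98 ± 1.18), Bambi (4.83 ± 1.34), Smad5 (3.92 ± 1.77) and Smad9 (1.55 ± 2.67). Every neighbouring pair from Id2 down to Smad9 overlapped in range. Within libraries Smad7 exceeded Smad1, Smad6 exceeded Bambi and Smad5 exceeded Smad9 in 6 of 7, while Id1 over Smad7, Smad1 over Smad6 and Bambi over Smad5 held in 4 of 7. The ranges of Smad5 and Smad9 overlapped only through DPBS replicate 3.

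**Figure D1:**
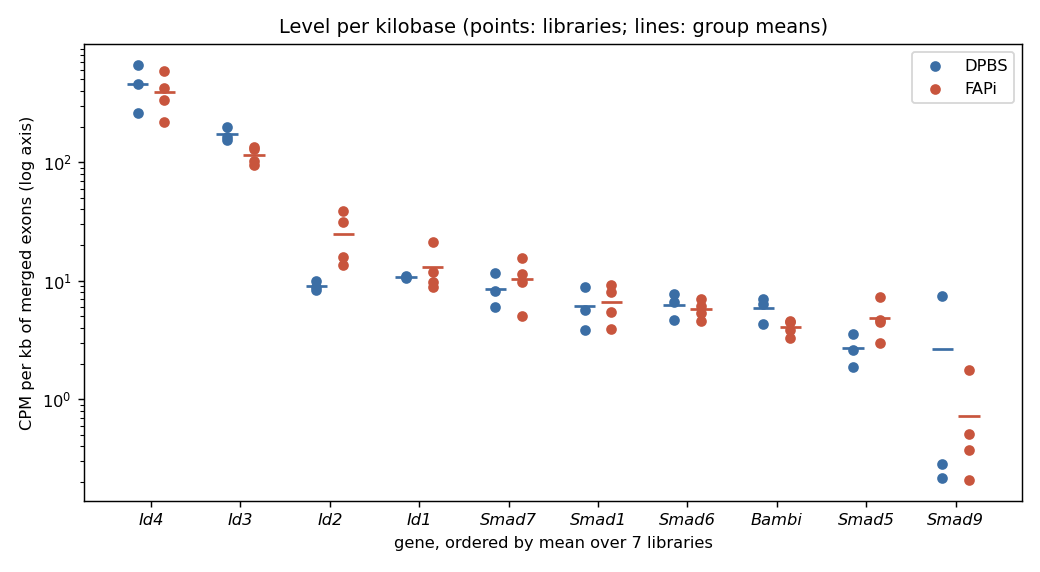
Level of each gene in CPM per kilobase of merged exons (log axis), with genes ordered by their mean over the 7 libraries. Points are libraries (DPBS blue, FAPi red) and short lines are group means; Id4 and Id3 stand above the ranges of all other members, while neighbouring genes from Id2 to Smad9 overlap.

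The question of the design is how the stromal transcriptome differs after FAP inhibition. Of the BMP response genes, 0 of 10 passed the edgeR test at an adjusted p under 0.05. Over all genes tested the same rule called 0%, and DESeq2 called 1.04% of all genes (0.65% higher in FAPi) and 0 of the 10. In simulated counts the edgeR test recovered 0% of genes changed 2-fold and 6% of those changed 4-fold. A member changed by that much would therefore mostly be missed, and the lack of calls does not show that the genes are unchanged. At an unadjusted p under 0.05 there were 2 members, Id2 (higher in FAPi) and Id3 (lower), where 8.14% of all genes passed (4.45% higher and 3.69% lower). The same 2 members were also those whose groups did not overlap, where 7.34% of all genes did not (3.39% higher and 3.95% lower in FAPi). At those shares about 1 gene of 10 would meet each rule. Of the 10 estimates 5 were above 0 and 5 below, where 49.4% of all genes were below, with a median log2 difference (FAPi minus DPBS) of -0.01, against 0.01 for all genes tested.

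Id2 had the largest estimate above 0 of the set. It lies on chromosome 12 (25093799 to 25097140, minus strand, mm10) and encodes an inhibitor of bHLH factors known for its roles in lymphoid lineages and fat cell differentiation. Its level was 20.5, 24.3 and 21.5 CPM in DPBS replicates 1 to 3 and 33.3, 94.5, 76.9 and 38.7 CPM in FAPi replicates 1 to 4. All 4 FAPi libraries lay above all 3 DPBS libraries, and FAPi replicates 2 and 3 were well above the rest. The means were 22.1 ± 1.96 CPM (SD, n = 3) and 60.8 ± 29.7 CPM (SD, n = 4). The log2 difference was 1.46 ± 0.45 (SE), or 2.75-fold, and did not pass over all genes (edgeR adjusted p = 0.488, DESeq2 adjusted p = 0.109). Across the other 18 settings and omissions it stayed above 0, between 1.12 and 1.66. The SD among FAPi libraries exceeded that among DPBS libraries, whose counts for Id2 were 229, 230 and 228.

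Markers of T and NK cells, in which Id2 is also expressed, were low in these libraries. Of 10 such markers 7 had no count in any library, Cd3e and Ncr1 among them. The summed level was 0.660 to 10.7 CPM in DPBS and 1.03 to 22.2 CPM in FAPi libraries. Lck made up 21.8 CPM of the highest value, in FAPi replicate 3. In FAPi replicate 2, where Id2 was highest, the sum was 1.03 CPM. The part of such cells in the Id2 value was not tested.

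Id3 had an estimate in the other direction. The gene (chromosome 4, 136143497 to 136145755, plus strand) encodes an Id protein that is a textbook early target of BMP. Its level was 291, 276 and 358 CPM in the DPBS libraries and 233, 171, 239 and 185 CPM in the FAPi libraries. Every DPBS library lay above every FAPi library, with the smallest gap between DPBS replicate 2 and FAPi replicate 3. The group means were 308 ± 43.9 CPM (SD, n = 3) and 207 ± 34.04 CPM (SD, n = 4). FAPi minus DPBS gave -0.57 ± 0.24 (SE) on the log2 scale, which was not called (edgeR adjusted p = 0.574). With single libraries left out it ranged from -0.65 to -0.45. The summed erythroid and neutrophil markers given above were also higher in DPBS replicates 1 and 2 than in any FAPi library, while in DPBS replicate 3, where Id3 was highest, they were 1672 and 609 CPM. Their part in the Id3 value was not tested.

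Id1 and Id4 did not separate the groups. Id1 (chromosome 2, 152736251 to 152737410, plus strand), the most widely used BMP reporter gene of the family, stood at 12.5, 12.7 and 12.3 CPM in DPBS and 24.7, 10.2, 11.3 and 13.8 CPM in FAPi libraries. The DPBS values were nearly equal, and FAPi replicate 1 alone was high. The log2 difference was 0.27 ± 0.53 (adjusted p = 0.942, edgeR), and -0.086 without FAPi replicate 1. Summed endothelial markers, of cells in which Id1 is also abundant, were 34.2 to 376 CPM in FAPi and 39.5 to 160 CPM in DPBS libraries, and highest in FAPi replicate 1. There Kdr made up 340 CPM, while Cdh5 stood at 1.88 CPM and Tek had no count. The B cell genes Ms4a1 and Pax5 also stood apart in that library. Ms4a1 was at 51.0 CPM, against 0.838 to 2.07 CPM in the others, and Pax5 at 13.8 CPM, against 0.269 to 1.16 CPM. Cd79a and Cd79b of the same list were highest in DPBS replicate 2, at 82.2 and 67.0 CPM. In FAPi replicate 1 they stood at 32.1 and 51.5 CPM. Summed B-lineage markers (9 of 9 matched) were 622 to 1098 CPM in DPBS and 753 to 1212 CPM in FAPi libraries, highest in FAPi replicate 1, and most of that sum was Ebf1 (802 CPM on average), which marrow stroma also expresses. The part of these transcripts in the Id1 value was not tested.

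Id4 (chromosome 13, 48261228 to 48266026, plus strand), the family member tied to bone over fat differentiation, was at 995, 2559 and 1760 CPM in DPBS and 1614, 1281, 2281 and 841 CPM in FAPi libraries. The groups overlapped over almost their whole range. The log2 difference was -0.24 ± 0.37 (adjusted p = 0.922, edgeR), and 0.12 without DPBS replicate 2, the library with the highest level. Exons of Id4 overlap those of A330033J07Rik and Gm49291 on the other strand. Whether the counting used strand is not stated, so reads of these genes cannot be assigned with certainty.

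The makeup of the Id family differed between libraries mainly in the shares of Id3 and Id4. Per kilobase, Id4 made up 58.8% to 79.2% of Id transcripts in DPBS and 62.5% to 77.3% in FAPi libraries. Id3 made up 18.3% to 36.9% and 17.4% to 29.6%. Id2 was 1.19% to 1.91% of the family in DPBS and 2.33% to 8.14% in FAPi libraries, without overlap. Within a library, the log2 ratio of Id2 to Id3 per kilobase was -4.27, -3.95 and -4.50 in DPBS and -3.26, -1.30, -2.08 and -2.70 in FAPi libraries. This ratio was chosen after the values were seen, and its separation follows from that of its parts. The Id2 share rests on the same Id2 values, so its lack of overlap is not a further result. The summed level of the family was 652 ± 201 CPM per kb in DPBS (SD, n = 3) and 544 ± 177 CPM per kb in FAPi libraries (SD, n = 4), with overlap.

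**Figure D2:**
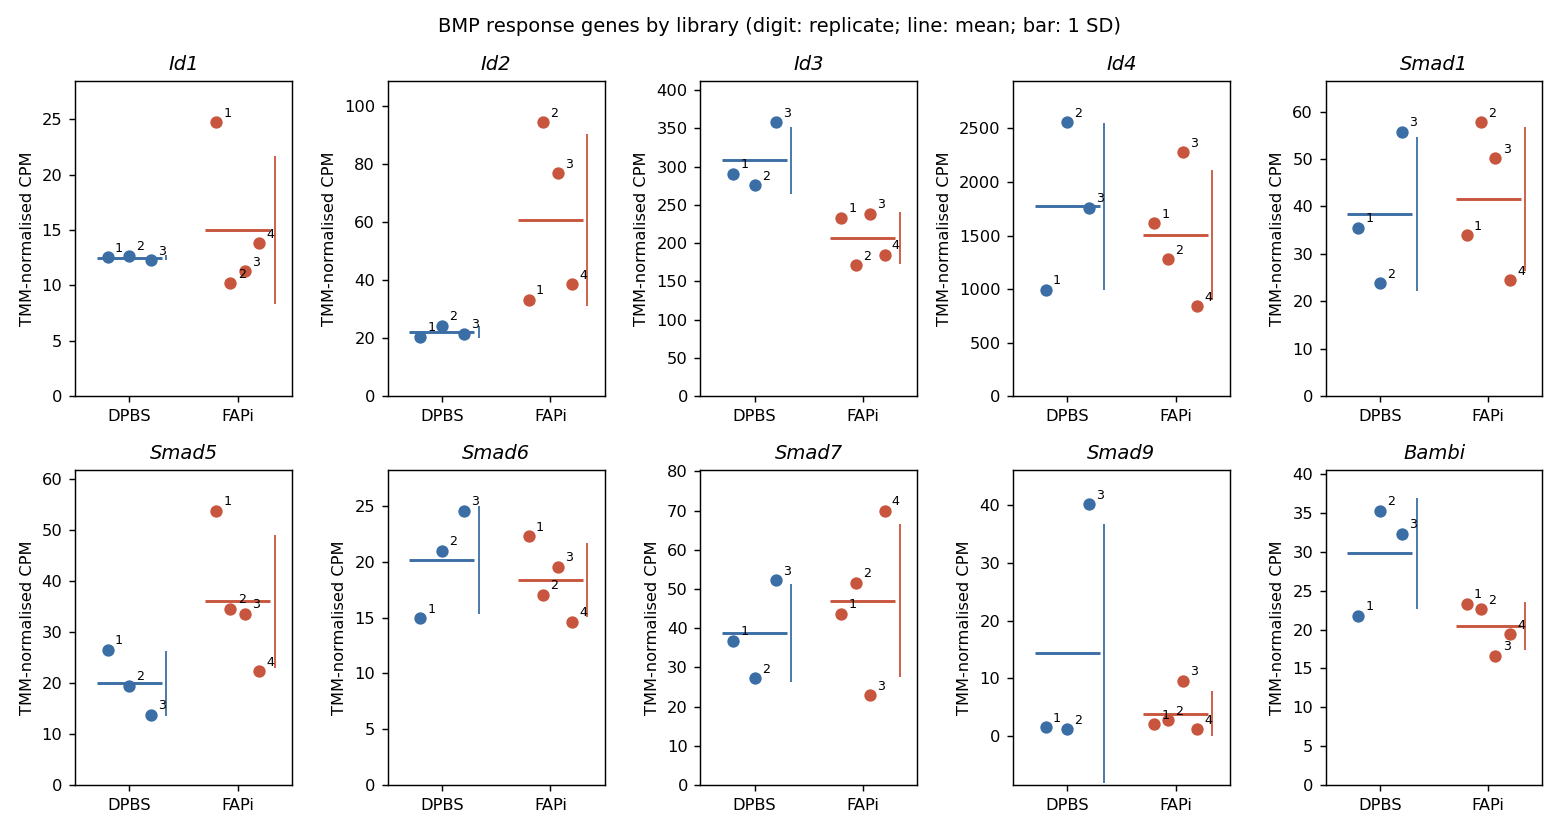
TMM-normalised CPM of each of the 10 genes in each library (linear axes; digits are replicate numbers, horizontal lines group means, vertical bars 1 SD). Id2 is higher in all 4 FAPi libraries (33.3 to 94.5 CPM) than in the 3 DPBS libraries (20.5 to 24.3 CPM), Id3 is lower, and Smad9 is high in DPBS replicate 3 (40.1 CPM).

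Among the receptor-regulated Smads, which carry the BMP signal to the nucleus, Smad5 had the larger positive estimate. Smad5 (chromosome 13, 56703010 to 56742377, plus strand) was at 26.5, 19.4 and 13.8 CPM in DPBS and 53.7, 34.5, 33.5 and 22.3 CPM in FAPi libraries. The groups overlapped, since FAPi replicate 4 lay below DPBS replicate 1. The log2 difference was 0.86 ± 0.45 (adjusted p = 0.669, edgeR), and 0.60 without FAPi replicate 1. Smad5 shares exon sequence with Gm27301 on the same strand, so reads there are ambiguous.

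Smad1 (chromosome 8, 79338395 to 79399518, minus strand) was at 35.5, 23.9 and 55.8 CPM in DPBS and 33.9, 57.8, 50.2 and 24.4 CPM in FAPi libraries, which covered almost the same range. Its log2 difference of 0.12 ± 0.44 (adjusted p = 0.978, edgeR) was below 0 when libraries were scaled by total count alone (-0.072) or without FAPi replicate 2 (-0.10).

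Smad9 (chromosome 3, 54755582 to 54801257, plus strand), the least studied of the 3 transducers, had few counts in most libraries. Its level was 1.52, 1.16 and 40.1 CPM in DPBS and 2.01, 2.71, 9.55 and 1.12 CPM in FAPi libraries. DPBS replicate 3 stood apart, with 426 counts against 8 to 82 in the other 6 libraries. The lowest count, 8 in FAPi replicate 4, has an exact 95% Poisson interval of 3.45 to 15.8, which covers counting error only. The log2 difference was -1.88 ± 1.21 (adjusted p = 0.727, edgeR) with all libraries and 1.51 without DPBS replicate 3, and DESeq2 gave no p-value. In that library summed megakaryocyte and platelet markers were 523 CPM, against 89.0 to 196 CPM in the others, and the endothelial gene Flt1 was 72.9 CPM, against 1.06 to 3.23 CPM. The pericyte gene Cspg4 was 35.2 CPM there, against 2.01 to 7.11 CPM, and like Smad9 it was next highest in FAPi replicate 3. The endothelial genes Pecam1, Emcn and Tek and the pericyte or smooth muscle genes Myh11, Mcam and Tagln were also highest in DPBS replicate 3. The rest of both lists peaked in other libraries: Cdh5, Kdr, Egfl7, Esam, Tie1, Stab2, Rgs5, Notch3, Acta2 and Kcnj8. Summed endothelial markers were 160 CPM in DPBS replicate 3, against 376 CPM in FAPi replicate 1. Summed pericyte and smooth muscle markers (8 of 8 matched) were 357 to 394 CPM in DPBS and 279 to 493 CPM in FAPi libraries. DPBS replicate 3, at 385 CPM, was not the highest in that sum. The part of these transcripts in the Smad9 value was not tested. Per kilobase, Smad9 made up 41.0% of receptor-regulated Smad transcripts in DPBS replicate 3 and 2.87% to 12.4% in the other libraries, while Smad1 made up 41.5% to 64.1% in all 7.

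The feedback inhibitors did not pass either. Smad6 (chromosome 9, 63953076 to 64022059, minus strand), which blocks BMP-type signalling with some preference, varied least of the 10 genes, with 14.96, 21.02 and 24.6 CPM in DPBS and 22.3, 17.1, 19.6 and 14.7 CPM in FAPi libraries. Its highest library was 1.68 times its lowest, and the log2 difference was -0.13 ± 0.44 (adjusted p = 0.974, edgeR). It was 0.032 without DPBS replicate 3.

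Smad7 (chromosome 18, 75367529 to 75395935, plus strand), which blocks TGF-beta as well as BMP receptors, was at 36.8, 27.2 and 52.2 CPM in DPBS and 43.7, 51.6, 22.9 and 69.9 CPM in FAPi libraries. The lowest and the highest value were both from FAPi libraries, and the log2 difference was 0.28 ± 0.44 (adjusted p = 0.922, edgeR). Without FAPi replicate 4 it was 0.03, and without DPBS replicate 3 it was 0.55.

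Bambi (chromosome 18, 3507923 to 3516404, plus strand) encodes a decoy receptor without a kinase domain. It was at 21.8, 35.3 and 32.3 CPM in DPBS and 23.3, 22.6, 16.7 and 19.4 CPM in FAPi libraries. DPBS replicates 2 and 3 lay above all others, and DPBS replicate 1 lay within the FAPi range. The log2 difference was -0.54 ± 0.40 (adjusted p = 0.771, edgeR), and it ranged from -0.73 to -0.40 when single libraries were left out. Over the 7 libraries the patterns of Bambi, Smad6 and Id3 were the closest among the members. The root mean square difference of their centred log2 CPM was 0.29 for Smad6 and Bambi, 0.30 for Id3 and Smad6 and 0.33 for Id3 and Bambi. This measure is not scaled by the spread of a gene, so genes that vary little lie close to many others. Smad6, which varied least, was also at 0.38 from Id4 and 0.39 from Id1. Smad5 and Smad9 were the least alike at 1.98, but every pair with Smad9 lay at 1.35 or more. Pairs without Smad9 lay at 1.10 or less.

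**Figure D3:**
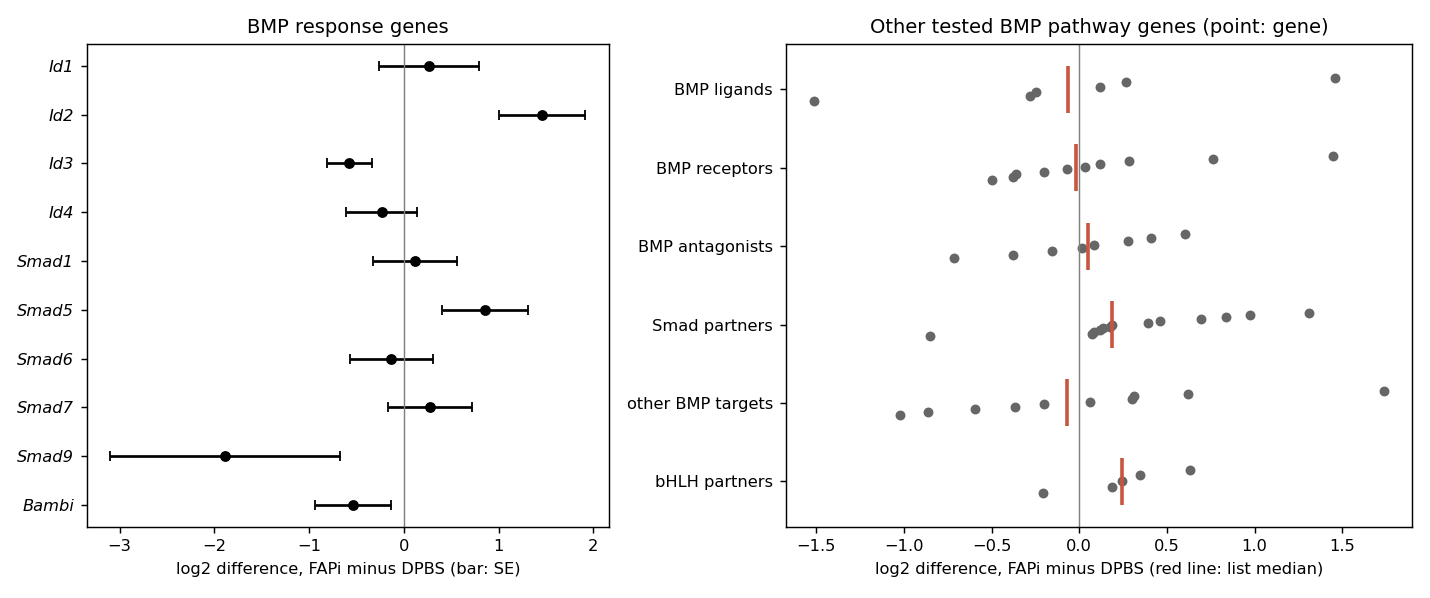
Log2 difference between FAPi and DPBS libraries, on the left for the 10 genes with the standard error of the edgeR estimate, on the right for the other tested BMP pathway genes by list, with the list median as a red line. Id2 lies highest (1.46) and Smad9 lowest (-1.88, with the widest error) of the 10, and no point in either panel passed an adjusted p of 0.05.

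The rest of the pathway was read from lists of ligands, receptors, antagonists, Smad partners, other BMP targets and the bHLH factors that Id proteins bind. Of 68 genes 52 were tested, and 0 passed in edgeR or in DESeq2. At an unadjusted p under 0.05 there were 4 (Bmp2, Acvr2a, Ski and Hes1), near the 8.14% of all genes. The groups did not overlap at 3 (Bmper, Hes1 and Tcf3), near the 7.34% of all genes. For Bmper the gap was narrow, with the lowest DPBS library at 38.92 CPM and the highest FAPi library at 38.81 CPM. For Tcf3 it was lost when libraries were scaled by total count alone. Estimates were above 0 for 34 and below for 18, with a median of 0.12, where 49.4% of all genes were below. With libraries scaled by total count alone the pathway split was 23 above and 29 below, with a median of -0.033, and 60% of all genes were below. Without FAPi replicate 3, when 50 were tested, it was 25 and 25.

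Of the ligands 6 of 14 were tested, 3 with an estimate above 0 and 3 below. Bmp4 and Bmp6 were the most abundant, at means of 387 ± 176 and 115.6 ± 27.4 CPM in DPBS and 319 ± 112 and 125.7 ± 32.1 CPM in FAPi libraries. Bmp2, a strong bone-inducing ligand, was at 21.4, 28.3 and 9.14 CPM in DPBS and 6.03, 4.52, 11.8 and 5.16 CPM in FAPi libraries. Its log2 difference was -1.51 ± 0.61 (adjusted p = 0.564, edgeR), with overlap through DPBS replicate 3. Bmp5 differed by 1.46 ± 0.86 at a level of 1.58 to 14.2 CPM.

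Of the receptors and co-receptors 10 of 11 were tested, 5 in each direction, with a median of -0.02. Bmpr2, the main type II BMP receptor, was at 102 ± 17.9 and 110.7 ± 45.2 CPM, and the type I receptor gene Bmpr1a at 71.3 ± 37.6 and 55.7 ± 25.2 CPM. Acvr2a, a type II receptor shared with activins, differed by 1.44 ± 0.56 (adjusted p = 0.547, edgeR), with 8.98 to 21.2 CPM in DPBS and 15.8 to 73.0 CPM in FAPi libraries. Neo1 and Rgmb differed by -0.50 ± 0.36 and 0.76 ± 0.67. Antagonists were abundant: Chrdl1, Grem1 and Fst averaged 561 ± 18.9, 432 ± 140 and 308 ± 77.7 CPM in DPBS libraries and 594 ± 175, 437 ± 62.4 and 467 ± 218 CPM in FAPi libraries. Of 13 antagonists 8 were tested, with a median of 0.05, and Fst differed by 0.60 ± 0.34, Bmper by -0.71 ± 0.42 and Nbl1 by -0.38 ± 0.48.

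Of the 13 Smad partners, all tested, 12 had an estimate above 0, with a median of 0.18, where 49.4% of all genes were below. That count was 7 of 13 when libraries were scaled by total count alone. This scaling moved the median of all genes from 0.01 to -0.16 and that of the list to 0.03. With single libraries left out the count ranged from 9 of 13 (without FAPi replicate 3) to 12 of 13 (without FAPi replicate 2). Smad4, the common partner, was at 46.996 ± 6.51 and 51.5 ± 15.8 CPM. Skil, which encodes the Smad repressor SnoN, was at 254, 339 and 532 CPM in DPBS and 331, 1186, 752 and 404 CPM in FAPi libraries. Like Id2, it was highest in FAPi replicates 2 and 3, and it differed by 0.83 ± 0.44 (adjusted p = 0.668, edgeR). Its relative Ski was at 210, 76.5 and 165 CPM and 94.5, 74.3, 104.8 and 60.4 CPM, a log2 difference of -0.85 ± 0.37 (adjusted p = 0.582, edgeR). Nedd4l, a ubiquitin ligase gene, differed by 1.31 ± 0.81.

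Among other BMP targets, 5 of the 10 tested had an estimate above and 5 below 0. Hes1, a bHLH repressor best known as a Notch target, had the smallest unadjusted p of the pathway genes. It was at 449, 463 and 455 CPM in DPBS and 248, 194, 173 and 281 CPM in FAPi libraries. The groups lay far apart relative to their spread, at 456 ± 7.25 CPM (SD, n = 3) and 224 ± 49.5 CPM (SD, n = 4). FAPi minus DPBS was -1.02 ± 0.24 on the log2 scale, not called over all genes (edgeR adjusted p = 0.430, DESeq2 adjusted p = 0.153). Msx1 and Dlx3 differed by 0.62 ± 0.51 and 1.74 ± 1.08, and Dlx3 stood at 0.448 to 5.30 CPM, near the detection limit in some libraries. The bone regulator Runx2 was at 790 ± 449 and 824 ± 263 CPM. Of the bHLH factors, Tcf3, an E protein that Id proteins bind, did not overlap between the groups after TMM scaling. It was at 62.0, 57.1 and 55.04 CPM in DPBS and 76.7, 120.3, 64.6 and 98.4 CPM in FAPi libraries (log2 difference 0.63 ± 0.32, edgeR adjusted p = 0.653). Scaled by total count alone, DPBS replicate 1 lay above FAPi replicate 3. Twist1 and Twist2 differed by 0.24 ± 0.41 and 0.35 ± 0.59.

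For each Id gene, the genes of most similar pattern were found by the root mean square difference of centred log2 CPM over the 7 libraries, among 9548 genes with a mean of at least 5 CPM. For Id1 they were Cnot6l (0.10), Zkscan17 (0.12) and Abcc9 (0.12), each highest in FAPi replicate 1. For Id2 they were Kmt2d (0.24), Ttyh2 (0.27) and Dlat (0.29). Ttyh2 stood at 84.0 to 123 CPM in the DPBS libraries and at 172, 457, 482 and 216 CPM in the FAPi libraries. For Id3 they were Mbd6 (0.12), Anxa7 (0.13) and Huwe1 (0.15), and for Id4 Acbd5 (0.21), Bloc1s2 (0.21) and Pole3 (0.23). With 7 libraries and this many candidates, close matches are chosen from many, and the values are given as descriptions.

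**Figure D4:**
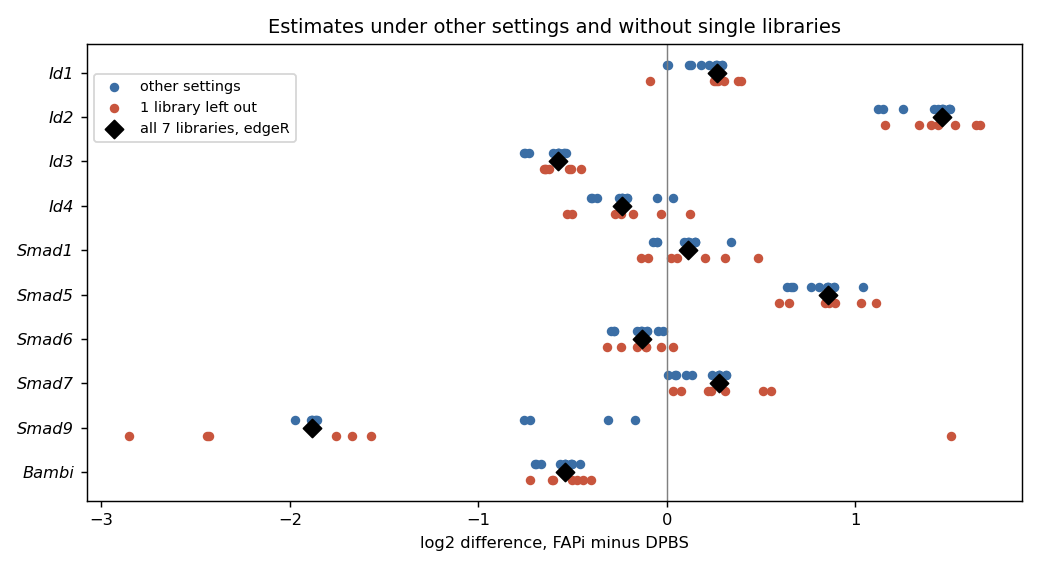
Log2 difference of each of the 10 genes with all 7 libraries in edgeR (black diamonds), under other scalings, filters and tests (blue) and with 1 library left out (red). Id2 stays above 0 (1.12 to 1.66) and Id3 and Bambi below 0 in every case, while Smad9 moves from -1.88 to 1.51 when DPBS replicate 3 is left out.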

How the data were processed

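The authors deposited, for each of the 7 libraries, whole-number read counts per gene and a CPM table. Per the submitters' processing notes, STAR, HTSeq and mm10 were used; neither versions, annotation nor strand setting is stated. A name tag (rmdup) on the count tables may mean that duplicate reads were removed, and no protocol says so. The deposited CPM equal count over library total, to within 4.55e-05 CPM. In 6 CPM tables the last lines recur, and each gene's earliest line was taken. Of 53801 gene IDs 53706 matched GENCODE M21 without version suffixes, which gave symbols, mm10 coordinates and exon lengths. Promoter windows come from RefSeq (GRCm38.p6).

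Counts were tested with edgeR 4.0.16 in R 4.3.3: filterByExpr by group (minimum count 10), TMM factors, robust quasi-likelihood F-test over all 12930 genes, Benjamini-Hochberg adjustment, threshold 0.05. SE is the absolute log2 difference over the square root of F. Alternatives used DESeq2 1.42.0 and limma 3.58.1. Log2 CPM for pattern comparison used a prior count of 2. In simulated counts for FAPi against DPBS (12930 genes), edgeR recovered 0% of genes changed 2-fold, 6% at 4-fold, 44% at 8-fold and 62% at 16-fold. The 10 genes and the pathway and marker lists were chosen with earlier results of these data known. The text names all 10 genes, up to 3 genes per pathway list by smallest unadjusted p, the 3 genes closest in pattern to each Id gene, and abundant or absent cell type markers. Bmp6, Bmpr1a, Bmpr2, Chrdl1, Grem1, Smad4, Runx2, Cdh5, Flt1, Cspg4, Ms4a1, Pax5, Tek and Pdgfra were named outside that rule, after their values were seen. Cd79a, Cd79b, Pecam1, Myh11 and the other endothelial, pericyte and smooth muscle genes listed with Smad9 were also named after their values were seen. Intervals and detection limits cover counting error only.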

Additional observations from a re-analysis of the deposited data

How the results depend on the processing

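No alternative called any of the 10 genes or of the 52 tested pathway genes. Over all genes, edgeR called 0 (1053 at an unadjusted p under 0.05). This became 6 with no low-count filter, 135 with DESeq2 (663 adjusted p-values were NA), 1 with voom weights, 6 with limma on the deposited CPM at pseudocount 1 and 6 at 0.1, 1 at an adjusted p under 0.1, and 0 to 3 when single libraries were left out, the 3 without DPBS replicate 3. Id2, Id3, Smad5, Smad7 and Bambi kept their direction in all 18 other fits. Smad1 turned with library size only (-0.072), with limma on CPM at either pseudocount (-0.051 and -0.052), without DPBS replicate 2 (-0.14) and without FAPi replicate 2 (-0.10). Id4 turned without DPBS replicate 2 (0.12), Smad6 without DPBS replicate 3 (0.032), Smad9 without DPBS replicate 3 (1.51) and Id1 without FAPi replicate 1 (-0.086). Over single omissions Id1 ranged up to 0.40, Id4 down to -0.53, Smad1 up to 0.49, Smad6 down to -0.32 and Smad9 down to -2.85. The cause was not tested. Id2 had an unadjusted p under 0.05 in each fit, whereas Id3 did not in 7 of the 18 others, among them DESeq2 and the fits without DPBS replicate 1 or 3 or without FAPi replicate 2 or 4.

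Deviations from the group mean did not rise and fall together in same-numbered libraries (correlations -0.01, -0.02 and -0.05). Differently numbered libraries were not compared, so whether the numbers mark pairs was not settled. The replicate block, in which FAPi replicate 4 has no partner and drops out of the contrast, called 0 genes (718 at an unadjusted p under 0.05) and turned Id4 (0.034). Smad9 had 8 to 21 counts in 5 of 7 libraries, where counting error is largest, and its estimate rests on DPBS replicate 3.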
